A study of Mus musculus with 4 samples.

Results

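The genes described here are 4 that mark the eosinophil, a granulocyte of allergy and of defence against worms: Siglecf, Prg2, Epx and Il5ra. They were chosen by symbol, as every probe set on the array annotated with 1 of these symbols alone, which gave 4 probe sets, 1 for each gene, among 34945 probe sets of 18193 genes. With a single probe set per gene, no second probe set could be set beside any of the 4. RNA came from 2 kinds of sorted, untreated mouse progenitor, each from wild-type and from Trib1-/- mice on a mixed C57BL6J/129SV background. The 4 groups, wild-type and Trib1-/- cells of each kind, were measured on 1 Affymetrix array each. Where a pair of values is given for GMP or for MDP below, wild type comes first and Trib1-/- after it. GMP is the granulocyte monocyte progenitor, and MDP is a population whose cell type is labelled macrophage dendritic cell. The labels do not give the sort gates, the age or number of the animals, or the part of Trib1 that was deleted.

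Eosinophils arise in the bone marrow from progenitors of the granulocyte branch, under GATA and C/EBP transcription factors and with interleukin 5 as their main growth factor. Their granules are filled with cationic proteins, chiefly major basic protein and eosinophil peroxidase, which are made early, while the cell is still a precursor. Trib1 encodes a pseudokinase that brings C/EBP-alpha to the COP1 ubiquitin ligase for degradation, and Trib1-deficient mice are known for a shortage of eosinophils.

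The promoter windows are shown because Siglecf and Epx were high in GMP and low in MDP in wild type while Il5ra read alike on all arrays. The 250 bases before the annotated start were taken from RefSeq on GRCm38.p6, where 3 of the 4 genes had a window. Prg2 had none. Capitals mark matches, on either strand, to any of 4 GATA hexamers (AGATAA or AGATAG and also TGATAA or TGATAG), to a C/EBP-type motif (TTGCNNAA), to a PU.1-type motif (GAGGAA) or to a TATA box (TATAAA). No match overlapped another.
Siglecf, chr7:43351091-43351340, plus strand: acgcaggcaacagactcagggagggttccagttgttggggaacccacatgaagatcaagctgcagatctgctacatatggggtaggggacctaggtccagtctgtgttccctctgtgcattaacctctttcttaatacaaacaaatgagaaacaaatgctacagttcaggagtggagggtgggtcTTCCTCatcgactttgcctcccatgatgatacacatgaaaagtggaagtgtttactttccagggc
Epx, chr11:87875537-87875786, minus strand: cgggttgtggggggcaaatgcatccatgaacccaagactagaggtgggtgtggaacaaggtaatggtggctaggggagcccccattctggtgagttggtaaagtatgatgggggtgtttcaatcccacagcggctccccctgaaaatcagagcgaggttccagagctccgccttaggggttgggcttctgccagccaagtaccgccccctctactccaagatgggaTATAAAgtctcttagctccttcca
Il5ra, chr6:106749038-106749287, minus strand: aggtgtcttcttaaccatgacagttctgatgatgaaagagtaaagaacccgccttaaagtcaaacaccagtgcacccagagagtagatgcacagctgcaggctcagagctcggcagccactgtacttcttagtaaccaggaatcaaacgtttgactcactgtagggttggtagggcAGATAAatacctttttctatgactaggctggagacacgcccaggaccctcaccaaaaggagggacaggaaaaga

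The Siglecf window held 1 match, to the PU.1-type motif on the minus strand, at positions -65 to -60 from the start. The Epx window held 1 TATA box, at -24 to -19. The Il5ra window held 1 GATA hexamer, at -74 to -69. Of 32851 windows of the same length, 26.5% held a GATA hexamer, 23.3% the PU.1-type motif, 12.4% a TATA box and 9.56% the C/EBP-type motif, so none of these matches is rare. A match is a string of letters and shows no binding.

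All values are log2 values from RMA, a method that corrects the background of Affymetrix arrays and makes their distributions alike. The array medians lay between 3.27 and 3.31. A floor was set at the median of all values, 3.29, and 11653 genes reached it on at least 1 array, all 4 eosinophil genes among them. Values below the floor were treated as near background, with no dependable order. With 1 array per group no spread between animals can be had and no test was made. A difference of at least 1 in log2, that is 2-fold, is used only as a size. The only spread at hand was that between different probe sets of a gene, over 4922 genes with several probe sets that reached the floor on at least 1 array, and its SD was 0.372 for the genotype difference in GMP, 0.383 in MDP, 0.543 for the progenitor difference in wild type and 0.422 for that in the knockout. It leaves out the spread between animals and sorts. The wild-type GMP array correlated less with the MDP arrays (0.875 and 0.883 over 11653 genes) than the Trib1-/- GMP array did (0.922 and 0.928). The GMP arrays correlated at 0.957 with each other, and the MDP arrays at 0.960. These values do not tell which of the GMP arrays is the unusual one. The genotype difference in GMP and the progenitor difference in wild type both rest on the wild-type GMP array. The other 2 comparisons do not use it. The 2 probe sets of Trib1 did not separate the genotypes, reading 0.34 and 0.15 higher in Trib1-/- GMP and 0.41 and 0.43 lower in Trib1-/- MDP, in units of log2. The labels do not say where the probes lie relative to the deletion, so genotype means the genotype on the label. On both GMP arrays all 10 GMP markers, among them Elane, Mpo and Ctsg, exceeded the floor, but so did 8 on wild-type and 7 on Trib1-/- MDP. Of the 7 MDP markers with a probe set, each array had 6 above it, but not the same 6. Flt3 was below it on both GMP arrays (2.95 and 2.66) and above it on both MDP arrays (4.85 and 5.50). Kit was the reverse, below it on both MDP arrays. The counts above the floor thus do little to separate the types. In wild-type MDP, 10 of 10 GMP markers were at least 2-fold lower than in GMP, where 12.4% of all genes were. Of the 7 MDP markers 5 were at least 2-fold higher, where 4.16% were, and 1 lower. In the knockout, 8 GMP markers were lower (4.08% of all genes), and 4 MDP markers higher (2.75%) and 1 lower.

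In GMP, the granule gene Prg2 and the surface receptor gene Siglecf were at least 2-fold lower on the Trib1-/- array, while the granule gene Epx and the receptor gene Il5ra were less than 2-fold apart. Prg2, which encodes major basic protein, the main constituent of the granule core, read 6.72 and 5.55 in GMP and 2.58 and 2.16 in MDP. Both GMP arrays were above the floor and both MDP arrays below it, and the Trib1-/- GMP array lay between wild-type GMP and the MDP arrays. The log2 difference between the GMP genotypes was -1.17, a 2.26-fold lower value in the knockout. As both values were well above the floor, raising weak values to it did not alter this difference.

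Siglecf encodes an inhibitory sialic acid receptor used to identify mouse eosinophils and lung macrophages. It read 4.64 and 3.11 in GMP and 1.89 and 2.45 in MDP. Only wild-type GMP was above the floor, so the order of the other three arrays is not dependable. The difference between the GMP genotypes was -1.54, or 2.90-fold, and -1.36 with the knockout value raised to the floor.

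Epx encodes eosinophil peroxidase, the haem enzyme of the granule matrix. It read 5.47 and 5.10 in GMP and 2.16 and 3.54 in MDP. The GMP arrays were both high and close to each other, and in MDP the knockout array alone was above the floor, by a little. The GMP difference of -0.37, or 1.29-fold, was no larger than the SD of 0.372 between probe sets of a gene.

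Il5ra encodes the alpha chain that gives the interleukin 5 receptor its specificity. It read 4.21 and 4.19 in GMP and 4.25 and 4.32 in MDP. All 4 arrays were above the floor and within 0.13 of each other, so no array was high or low and the order of the 4 values means nothing beyond the spread between probe sets. The GMP difference was -0.02 in log2. The floor is only the median of all values, so a level reading above it does not show that Il5ra RNA was present. Whether the reading is signal or probe background was not tested.

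**Figure D1:**
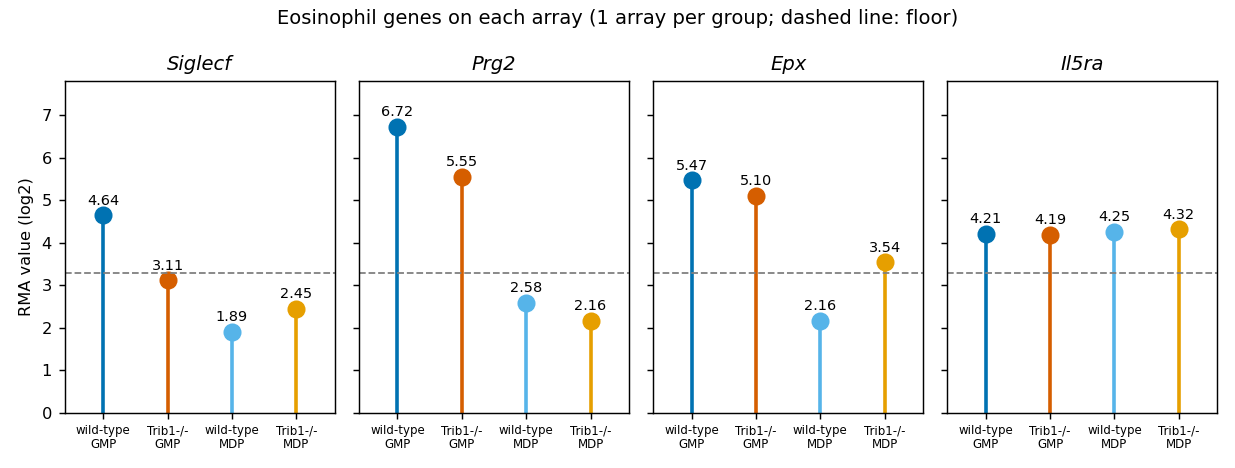
Log2 RMA values (vertical axis) of Siglecf, Prg2, Epx and Il5ra on the 4 arrays (horizontal axis), 1 point per array, so there are no error bars. The dashed line is the floor of 3.29. Prg2 and Epx stand above it on both GMP arrays, Siglecf on the wild-type GMP array alone, and Il5ra is level at 4.19 to 4.32 on all 4.

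At least 2-fold lower in Trib1-/- GMP were thus 2 of the 4 genes, where 3.16% of the 11653 genes were at least 2-fold lower. None of the 4 was at least 2-fold higher, where 0.481% of all genes were. The median difference of the 4 was -0.77, against -0.06 over all genes. Of the 11653 genes, 26 had a lower difference than Siglecf and 169 a lower one than Prg2. Siglecf reached the floor on wild-type GMP alone, the array against which it was called lower. It thus entered the 11653 genes through the array where it was high. Without a floor, 2 of the 4 were likewise at least 2-fold lower, where 2.22% of all genes were. Epx lay in the body of the distribution, with 24.8% of genes below it, and Il5ra near its middle, with 52.9% below it. With 32 added to the linear values before log2, which damps differences of weak signals, Prg2 was at -0.80 and Siglecf at -0.49, so neither was 2-fold apart, and 0.129% of all genes were at least 2-fold lower. In a bulk sample, fewer eosinophil precursors within the sorted cells and less of these RNAs per cell cannot be told apart. With 1 array per group, neither can be told from a difference between arrays or sorts.

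In MDP the genotype difference could hardly be read for these genes. Prg2 (-0.42) and Siglecf (0.55) were below the floor on both MDP arrays, so neither has a direction there. Epx was 1.38 higher in the knockout, or 2.60-fold, but its wild-type value was below the floor, and raised to it the difference was 0.25. Il5ra differed by 0.07. Hence 1 of the 4 genes was at least 2-fold higher, where 1.1% of all genes were, and 0 of 4 with values raised to the floor. None was at least 2-fold lower, where 1.53% of all genes were, and the median of the 4 was 0.31 against 0.01 over all genes.

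Prg2 and Epx differed more between the progenitors than between the genotypes. For Siglecf, with weak values raised to the floor, both were -1.36 where they start from the wild-type GMP array. In wild type, Prg2 was 4.14 lower in MDP than in GMP on the log2 scale (-4.14), or 17.6-fold, Epx was at -3.31, or 9.89-fold, and Siglecf at -2.75, or 6.73-fold. All 3 MDP values were below the floor. Raised to it, Prg2 was at -3.44, Epx at -2.18 and Siglecf at -1.36, so each was still at least 2-fold lower. With 32 added before log2, Prg2 was at -1.86, Epx at -1.06 and Siglecf at -0.67, the last no longer 2-fold apart. Il5ra differed by 0.04. At least 2-fold lower in wild-type MDP were 3 of 4 genes, where 12.4% of all genes were, and 0 of 4 at least 2-fold higher, where 4.16% were. Of the lower genes, Prg2 and Siglecf reached the floor on GMP arrays only, so they were kept through the progenitor where they were high. Of the 11653 genes 6 had a lower difference than Prg2, 15 than Epx and 36 than Siglecf.

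In the knockout, where the wild-type GMP array is not used, the same contrast was smaller for Prg2 and Epx. Prg2 was at -3.39, or 10.5-fold, and at -2.26 with the MDP value raised to the floor. Epx was at -1.56, or 2.95-fold, with both of its values above the floor. With 32 added, Prg2 was at -1.11 and Epx at -0.60. Siglecf was at -0.66, with both values below the floor, and so has no direction. Il5ra was at 0.13. At least 2-fold lower were 2 of 4 genes, where 4.08% of all genes were, and at least 2-fold higher 0 of 4, where 2.75% were. The median of the 4 was -1.11 in the knockout and -3.03 in wild type, against -0.01 and -0.04 over all genes. Whether the contrast differed between genotypes was not tested, as each group had 1 array.

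**Figure D2:**
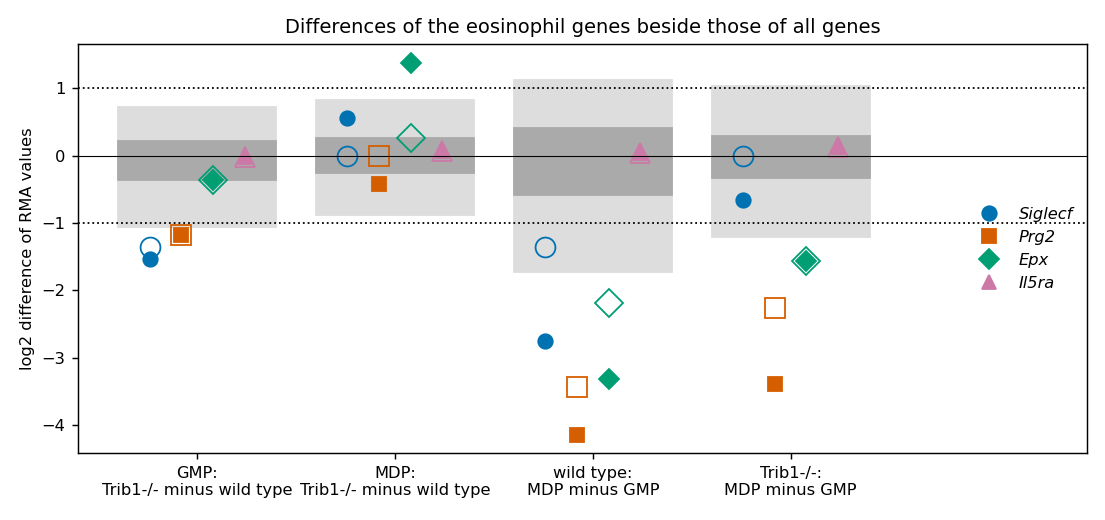
Log2 differences (vertical axis) of the 4 genes in the 4 comparisons (horizontal axis): filled symbols are the values as deposited and open symbols the values with anything below the floor raised to it. Light grey boxes span the central 95% of the 11653 genes and dark boxes the range between their quartiles, and dotted lines mark 2-fold. Prg2 and Siglecf lie below the light box in GMP at -1.17 and -1.54, and Epx lies above it in MDP at 1.38 before it is raised to the floor and at 0.25 after.

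Other granule and enzyme genes of eosinophils added little, because few of them reached the floor. Of 14 listed genes, 8 had a probe set of their own and 3 reached the floor. The Ear ribonucleases Ear1, Ear2, Ear6 and Ear10 were not analysed here. Prg3, the homologue of Prg2 that encodes a second major basic protein, read 2.78 and 1.94 in GMP and 1.58 and 1.39 in MDP, below the floor on every array. Alox15, the lipoxygenase gene of mature eosinophils, was also below it on every array, at 2.15 or less. Of the 3 genes that could be read, 2 were at least 2-fold lower in Trib1-/- GMP, where 3.16% of all genes were. Both are shared with other cells: Cpa3, the mast cell carboxypeptidase gene (-2.37), and Lgals1, which encodes galectin 1 (-1.15, other probe set -1.26). Padi4, a gene of histone citrullination, was at 0.18. In MDP none of the 3 was at least 2-fold apart, where 1.53% of all genes were lower and 1.1% higher.

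The genes that carry the signal of the interleukin 5 receptor, Csf2rb, Jak2, Stat5a and Stat5b, were each less than 2-fold apart between genotypes. The shared beta chain gene Csf2rb, which pairs with the product of Il5ra, read 6.57 and 6.53 in GMP and 6.37 and 6.20 in MDP. Its values lay within 0.38 of each other, with a GMP difference of -0.04. The related chain gene Csf2rb2 read 3.05 and 2.83 in the GMP arrays, below the floor, and 4.30 and 4.85 in wild-type and Trib1-/- MDP, a difference of 0.55. The kinase gene Jak2 was at -0.54 in GMP and 0.58 in MDP, with a second probe set at -0.41 and -0.46, and Stat5a and Stat5b, whose products act below the receptor, were at -0.30 and -0.32 in GMP and at 0.45 and 0.15 in MDP. Of 20 receptor and signalling genes, 15 reached the floor. In Trib1-/- GMP 1 was at least 2-fold lower and 0 higher, where 3.16% and 0.481% of all genes were. The lower gene was Ptpn6 (-1.08), which encodes the phosphatase SHP-1 that binds inhibitory receptors such as Siglec-F. Its second probe set was at -0.38. Their median was -0.30, against -0.06 over all genes. In MDP 1 gene was at least 2-fold lower and 0 were higher, where 1.53% and 1.1% of all genes were. The lower gene was Il3ra (-1.01), the interleukin 3 receptor alpha gene, whose knockout value lay below the floor (-0.24 once raised to it). Ccr3, the eotaxin receptor gene of mature eosinophils, was below the floor on every array, at 2.45 or less.

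None of the regulators of the eosinophil lineage that could be read was at least 2-fold apart between genotypes. Over all genes 3.16% were at least 2-fold lower and 0.481% higher in GMP, and 1.53% and 1.1% in MDP. A count of 0 in a list of this size is near these shares. Of 18 listed genes, 14 reached the floor by their probe set of highest mean. Of these, 11 had a difference below 0 in GMP, and the median was -0.48. The largest was Gata2 at -0.91, with a second probe set at -0.54. It encodes a GATA factor of eosinophil, basophil and mast cell precursors. Gata1, whose product is required for eosinophils, was below the floor on every array, at 3.24 or less. Cebpa read 8.54 in wild-type GMP and 7.90 in Trib1-/- GMP, a difference of -0.64 in a gene whose protein is the target of Trib1, and 6.89 and 6.91 in the MDP arrays. Xbp1, a secretory pathway factor needed by eosinophil precursors, was at -0.60 in GMP, and its other 3 probe sets lay between -0.81 and -0.10. In MDP the median of the 14 was -0.05, with 0 at least 2-fold apart.

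Several basophil and mast cell genes were also lower in Trib1-/- GMP. Of 14 such markers 13 had a probe set, and 7 reached the floor. All 7 had a difference below 0 in Trib1-/- GMP. At least 2-fold lower were 4 of them, where 3.16% of all genes were. They were Gzmb (-3.37, or -1.71 with its knockout value raised to the floor), Cpa3 (-2.37), Mcpt8 (-1.56) and Hdc (-1.16). Gzmb reached the floor on wild-type GMP alone, and Cpa3, Hdc, Fcer1a and Ms4a2 on GMP arrays alone. The floor thus kept genes high in GMP, and its part in the shared sign was not tested. Among listed genes below it on every array, Tpsb2 (0.69), Cma1 (0.56), Il4 (0.48) and Cd200r3 (0.03) were above 0 in GMP. Tpsab1 (-0.25) and Mcpt4 (-0.02) were below 0. Cpa3 is also on the granule and enzyme list above, so the counts of these lists overlap. The median of the 7 was -1.16, and -0.11 in MDP. The linear values of all 13 summed to 503.2 and 225.3 in GMP and 99.1 and 82.4 in MDP, and those of the 4 eosinophil genes to 193.4, 107.9, 33.2 and 41.5 in the same order. Both sums were thus highest in wild-type GMP and lower in the 2 MDP populations. Linear sums are set mostly by the strongest genes, here Prg2 (6.72 in log2 in wild-type GMP) among the 4, and they include values below the floor. The mast cell protease and tryptase genes Mcpt4, Cma1, Tpsb2 and Tpsab1 were below the floor on every array, as was Il4. Primary granule genes of early granulocytes had a median of -0.60 in GMP with 0 of 11 at least 2-fold lower, and late neutrophil genes a median of -0.10 with 0 of 6. In lists this small, a count of 0 is near the share of 3.16% over all genes. In the lists of Trib1 and its partners and of macrophage, erythroid and GMP markers, the named genes at least 2-fold apart between genotypes were Trib2 (1.18) and the ligase scaffold gene Cul4a (-1.10) in GMP, and Vcam1 (-3.21), C1qb (-2.33), Mrc1 (-2.22), Cd163 (-1.82), Fcgr3 (-1.81), Car2 (-1.69) and Tal1 (-1.18) in MDP. With weak values raised to the floor, Trib2 was at 0.38 and C1qb at -0.98, neither 2-fold apart, while Fcgr3 was at -1.45 and Car2 at -1.66. Cul4a was less than 2-fold apart when each array was centred on the median of its values at or above the floor, and with 32 added. The hybridisation controls BioB and BioC read 0.37 and 0.36 higher on the Trib1-/- GMP array than on the wild-type GMP array, and BioD and Cre 0.06 and 0.008 higher. Wild-type GMP was also below both MDP arrays, with BioB at 9.82 against 10.53 in wild-type and 10.36 in Trib1-/- MDP. BioC was at 10.76 against 11.34 and 11.26. The part of these in the difference of Prg2 and Siglecf, or in the wild-type progenitor differences, was not tested.

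**Figure D3:**
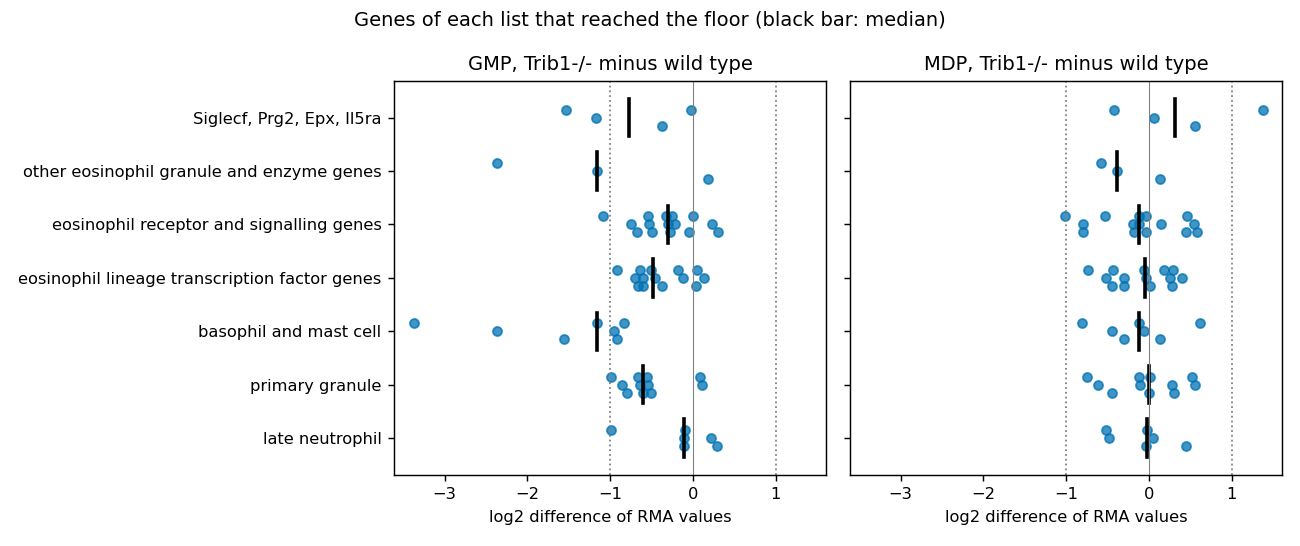
Log2 differences between Trib1-/- and wild type (horizontal axis) in GMP (left) and MDP (right) for the genes of 7 lists (rows) that reached the floor, 1 point per gene, with a black bar at each list's median. In GMP the 4 eosinophil genes have a median of -0.77, between those of the primary granule genes (-0.60) and the basophil and mast cell genes (-1.16). In MDP none of the 7 medians is further from 0 than -0.39.

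The pattern over the arrays was compared between the 4 eosinophil genes and all others. Likeness was measured as the Euclidean distance between the 4 log2 values of a gene after its own mean was subtracted, over 11653 genes and 4 arrays, with smaller values more alike. The genes nearest to Prg2 were genes of basophils and early granulocytes: Hdc (0.32), the gene of histamine synthesis, the granule gene Nkg7 (0.69), the cathepsin G gene Ctsg (0.74), the repressor gene Gfi1 (0.81) and the protease inhibitor gene Serpinb1a (0.87). Hdc read 6.91 and 5.75 in GMP and 2.86 and 2.74 in MDP. Like Prg2, it exceeded the floor on each GMP array and was below it on each MDP array. Its second probe set showed a smaller progenitor contrast in the knockout, -1.27 in place of -3.01.

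Siglecf was nearest to genes of another kind. They were the respiratory chain genes Ndufaf2 (0.17) and Ndufa1 (0.24), the mitochondrial ribosome gene Mrpl11 (0.27), Eef1e1 (0.32), an accessory gene of the tRNA synthetase complex, and Ormdl1 (0.36), a regulator of sphingolipid synthesis. Mrpl11, for example, was above the floor on all 4 arrays, at 6.79 and 5.58 in GMP and 4.34 and 4.69 in MDP. Siglecf, in contrast, was above the floor on 1 array, so its shape over the other arrays rests on weak signal. Epx was nearest to Phldb2 (0.52), the pentose phosphate enzyme gene Pgd (0.55), the vesicle transport gene Bet1 (0.56), Tmem87a (0.57) and Fstl3 (0.64). Il5ra was nearest to genes that were as level as itself, Mtln (0.02), Arhgef2 (0.03), Tut7 (0.03), Rufy3 (0.04) and Mier2 (0.04). Among the 4 genes themselves, the closest pair was Siglecf and Epx at 1.25. Of all genes, 1.04% were nearer to Epx than Siglecf was, and 8.63% were nearer to Siglecf than Epx was. The distance between Prg2 and Epx was 1.93, with 0.609% of genes nearer to Prg2 and 10.6% nearer to Epx. That between Prg2 and Siglecf was 2.19, with 1.07% nearer to Prg2 and 58.7% nearer to Siglecf. Il5ra lay between 2.11 and 3.95 from the others, and over 99.0% of genes were nearer to it than any of them.

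**Figure D4:**
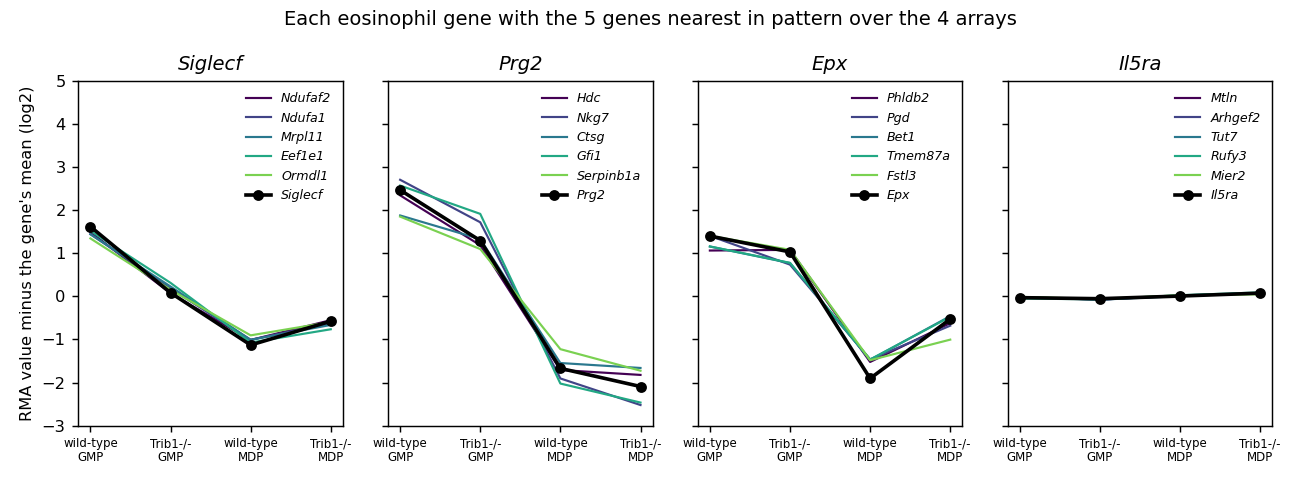
Log2 RMA values minus the gene's own mean (vertical axis) on the 4 arrays (horizontal axis) for each eosinophil gene (black) and the 5 genes nearest to it in pattern (coloured lines). Prg2 and Hdc, 0.32 apart, step down from GMP to MDP in both genotypes, Epx is lowest in wild-type MDP, Siglecf is above the floor in wild-type GMP alone, and the lines of Il5ra lie on top of each other because these genes read alike on all arrays.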

How the data were processed

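Total RNA of sorted cells was amplified with the NuGEN Ovation system, labelled with biotin and hybridised to Affymetrix arrays, per the labels' protocols. The deposited log2 values were made by the authors with RMA, per the submitters' processing notes. The log2 scale was inferred from their range, 0.14 to 14.5. They are not centred on 0, no ratio direction is involved, and the labels give no RMA version, array batch or build. Array medians were 3.27 and 3.29 in GMP and 3.31 and 3.27 in MDP, wild type first. RMA hides a change in total RNA per cell.

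Each gene took its probe set of highest mean among those with 1 platform symbol, and used where 1 of its 4 values reached the median of all values. Differences of single arrays were taken with python 3.11.15 and pandas 2.3.3. Loess used limma 3.58.1, with 3 iterations. The calculation was tested on simulated data with the same noise at every signal level and set differences larger than that of Prg2 in GMP. Noise near the floor and false calls were not covered. The number of arrays limits the precision. Members and lists were chosen with earlier results of these data known, and motifs after their sequences were seen. The named genes were the 4 members, Trib1, up to 4 genes of each list at least 2-fold apart between genotypes, and the 5 genes nearest to each member in pattern. Other list genes were named after their values were seen. Of the marker lists, those of monocytes and macrophages, dendritic cells, erythroid and lymphoid cells gave GMP genotype medians of -0.13, 0.03, -0.09 and 0.09. The alternatives were 10 in number.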

Additional observations from a re-analysis of the deposited data

Results flagged for a closer look

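Siglecf, Epx and Il5ra each had genotype differences of opposite sign in the 2 progenitors. The difference in MDP less that in GMP was 2.09 for Siglecf (-1.54 in GMP and 0.55 in MDP), 1.75 for Epx (-0.37 and 1.38) and 0.092 for Il5ra (-0.02 and 0.07), on the log2 scale. The values of Il5ra are far smaller than the SDs of 0.372 and 0.383 between probe sets. With each array centred on the median of its values at or above the floor, both Il5ra differences were above 0 (0.082 and 0.030). With 1 array per group the difference between progenitors was not tested, and 52.4% of 11653 genes also had opposite signs. Both MDP values of Siglecf and the wild-type MDP value of Epx lay below the floor.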

How the results depend on the processing

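With 1 array per group no array could be left out. No paired analysis was possible because each group has a single array. In GMP, the count of 2 eosinophil genes at least 2-fold lower became 1 with a floor at the 75th percentile, which keeps 2 of the 4 genes, and 0 with 32 added before log2 or under a 4-fold rule. In MDP, the count of 1 gene at least 2-fold higher became 0 with weak values raised to the floor, with 32 added, and under the 4-fold rule. In the knockout, MDP against GMP, the count of 2 lower became 1 with 32 added and under the 4-fold rule. The count of 3 lower in wild-type MDP was 2 with 32 added and with the higher floor, and 3 under each other alternative run. Of 152 values of single eosinophil genes under alternatives, 17 moved by more than the SD between probe sets. All 17 were with 32 added or with values raised to the floor, and none that was at least 2-fold apart changed sign. Most of the 152 could not move, as size rules, floor cut-offs and probe set choice leave the value of a gene with 1 probe set unchanged. Only loess, centring, raising to the floor and adding 32 could change a value. In GMP the list call of Ptpn6 was lost when probe sets were averaged, when arrays were centred on the median above the floor, with 32 added and under the 4-fold rule. Signal near background is the main limit: 6 of the 16 values of the 4 genes were below the floor.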
